A study of Mus musculus with 16 samples.

Results

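Toll-like receptor genes and their signalling partners were followed in germinal centre B cells that did or did not carry an Ezh2 Y641F allele. The set is defined by 10 gene symbols: the receptors Tlr1, Tlr2, Tlr4, Tlr6, Tlr7 and Tlr9, the receptor-like molecule Cd180, the trafficking protein Unc93b1, the adaptor Myd88 and the kinase Irak4. All 10 symbols were among the 49584 genes listed, and all 10 were among the 15240 genes with enough reads to be tested. The libraries were made from spleen B cells of C57BL/6J mice, 3 months old, taken 8 days after injection of sheep red blood cells, an antigen that induces germinal centres. Sorted cells were B220+, FAS+ and CD38-, and were divided into centroblasts (CXCR4+, CD86-) and centrocytes (CXCR4-, CD86+). Mutant animals had the genotype Ezh2(Y641F)fl/wt;Cγ1-cre+/-, with 1 conditional mutant allele beside a wild-type one. Control animals were Cγ1-cre+/-, so both genotypes carried the Cre recombinase. Cγ1-cre is expressed from the locus of the immunoglobulin γ1 constant region, and the share of sorted mutant cells that had recombined the allele was not analysed here. There were 4 libraries in each of the 4 groups, which the study describes as biological replicates, and every sample is labelled as coming from the same litter.

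Toll-like receptors sense microbial products. Tlr2, which pairs with Tlr1 or Tlr6, recognises lipoproteins at the cell surface, and Tlr4 recognises lipopolysaccharide there. Tlr7 and Tlr9 sense RNA and DNA inside endosomes, and reach them with the help of the membrane protein Unc93b1. Myd88 links these receptors to the kinase Irak4, which starts the cascade that activates NF-kB. Cd180 resembles Tlr4 outside the cell, lacks a signalling domain of that kind and is prominent on B cells. Ezh2 places the repressive mark H3K27me3, and the Y641F form, found in lymphomas of germinal centre origin, makes more of it.

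Start-site sequences are shown for 5 genes that the results below turn on, because they differ in CG content and in motif letters. RefSeq windows of 300 bases (GRCm38.p6, from 250 bases before the annotated start to 50 after) matched 7 of the 10 genes; Tlr4, Tlr7 and Unc93b1 had none. Bases inside a GENCODE M21 exon were left out of what is printed. Sequences read 5′ to 3′ along each gene's own strand. Capitals mark every match, on either strand, to GGAAGT (the core bound by ETS factors), GAAA, any 2 bases and GAAA (an interferon response element), GGAA, any 2 bases and GAAA (a composite ETS and IRF element) or GGGA, any 4 bases and CC (an NF-kB site). The first sequence, at chr15:94543548-94543642 on the plus strand, lies before Irak4, and the second, at chr5:64959167-64959416 on the minus strand, before the more internal of 2 starts of Tlr6. The Myd88 sequence is at chr9:119340042-119340268 on the minus strand, inside the gene as GENCODE M21 places it (119335934 to 119341411). That of Tlr9 is at chr9:106222348-106222597 on the plus strand. The Cd180 sequence, before the later of its 2 starts, is at chr13:102693308-102693557 on the plus strand.
Irak4: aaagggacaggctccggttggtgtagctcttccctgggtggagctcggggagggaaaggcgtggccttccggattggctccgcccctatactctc
Tlr6: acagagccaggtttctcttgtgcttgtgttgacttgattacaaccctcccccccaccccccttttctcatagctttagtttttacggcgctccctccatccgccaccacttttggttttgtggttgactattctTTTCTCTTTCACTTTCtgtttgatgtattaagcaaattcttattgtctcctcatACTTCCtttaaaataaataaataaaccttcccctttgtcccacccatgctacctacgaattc
Myd88: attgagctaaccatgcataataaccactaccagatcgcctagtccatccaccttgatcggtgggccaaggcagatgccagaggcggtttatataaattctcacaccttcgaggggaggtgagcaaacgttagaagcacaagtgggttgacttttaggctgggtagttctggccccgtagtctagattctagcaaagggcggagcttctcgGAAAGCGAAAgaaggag
Tlr9: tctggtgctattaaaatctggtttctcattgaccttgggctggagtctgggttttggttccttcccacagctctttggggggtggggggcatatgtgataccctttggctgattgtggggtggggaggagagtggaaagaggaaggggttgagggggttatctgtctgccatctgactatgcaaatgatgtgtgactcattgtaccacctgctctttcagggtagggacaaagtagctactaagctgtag
Cd180: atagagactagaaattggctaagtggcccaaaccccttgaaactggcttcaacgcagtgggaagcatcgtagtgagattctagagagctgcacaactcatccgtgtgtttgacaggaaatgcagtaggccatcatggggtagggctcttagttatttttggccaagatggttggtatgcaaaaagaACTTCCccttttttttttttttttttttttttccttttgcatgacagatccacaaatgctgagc

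The whole window of Irak4 held 16 CG dinucleotides and that of Myd88 held 13, against a median of 7 over 32851 windows. Tlr9 had none, and 3 to 11 were counted in the windows of Tlr1, Tlr2, Tlr6 and Cd180. The internal Tlr6 window held 2 overlapping matches to the interferon response element, which 3.44% of all windows hold, and Myd88 held 1. The other Tlr6 window, at the outer start, held none. The ETS core was present in 23.8% of all windows, the NF-kB site in 20.7% and the composite element in 2.72%. At least 1 window of Tlr1, Tlr2, Tlr6, Tlr9, Myd88 and Cd180 held the ETS core, and that of Irak4 did not. In Tlr9 and Myd88 it lay outside the printed part. The NF-kB site was found in Tlr2 alone, with 2 matches, and the composite element in no member window. A match describes letters alone, and binding was not measured.

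Counted reads ranged from 35230563 to 44466911 per library. Values below are CPM (read counts scaled to a common, TMM-adjusted library size), differences are log2 fold changes ± SE from the edgeR quasi-likelihood fit over all 16 libraries, and a gene is called at an adjusted p below 0.05. The p-values measure the spread between these libraries. In every group, libraries 1 and 2 had 247 to 371 CPM of Y-linked transcripts and libraries 3 and 4 had 0.129 to 1.39 CPM, so the split between them is also one of sex. Of the defining markers of germinal centre B cells, Bcl6 was at 375 to 569 CPM and S1pr2 at 344 to 624 CPM across all libraries. The libraries differed within groups in how a gene's deviation followed its GC content: the Spearman correlation over 14774 genes was −0.709, −0.316, 0.412 and 0.639 in control centroblast libraries 1 to 4, and between −0.414 and 0.418 in the others. A fit with an offset for GC content and transcript length is therefore given beside the results it changes. Macrophage markers (20 genes) summed to 356 and 355 CPM in mutant centrocyte libraries 3 and 4, and to 34.6 to 136 CPM in the other 14 libraries. None of the 20 was at 0 in those 2 libraries, and up to 2 were at 0 in the others. Between the genotypes in centrocytes, 2 of the 19 tested macrophage markers were called higher in mutants and 1 lower, with a median log2 difference of 1.05. Mean Itgam went the other way from the sum, at 3.17 CPM in control and 1.2 CPM in mutant centrocytes. In these bulk samples, fewer cells of a type and less RNA per cell cannot be told apart.

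Unc93b1 and Cd180 were the most abundant of the set in all 4 groups. Per kilobase of exon, Unc93b1 had 157 ± 35.6 CPM per kb (SD, n = 4) in control centroblasts and 271 ± 30.1 in mutant centrocytes. Cd180 followed with 116 ± 27.8 CPM per kb in control centroblasts, where its range overlapped that of Unc93b1, and with 191 ± 10.5 in mutant centrocytes, where it did not. Tlr9, Tlr1 and Myd88 formed a middle tier, with group means of 24.5 to 50 CPM per kb. Their order changed between groups: in centroblasts their ranges overlapped, whereas in centrocytes of both genotypes Myd88 lay below the overlapping ranges of Tlr9 and Tlr1. Irak4 came next at 6.88 to 10.5 CPM per kb, and its range overlapped that of Tlr6 in control centroblasts alone. Tlr6, at 4.93 to 6.84, and Tlr4, at 3.6 to 4.17, had ranges that overlapped in centroblasts and did not in centrocytes. Tlr7 and Tlr2 were lowest, with group means of 0.482 to 2.53 and of 0.473 to 1.2 CPM per kb. Their ranges overlapped in 3 groups; in control centrocytes Tlr7 was above Tlr2. In mutant centrocytes the upper end of the Tlr7 range also overlapped that of Tlr4.

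**Figure D1:**
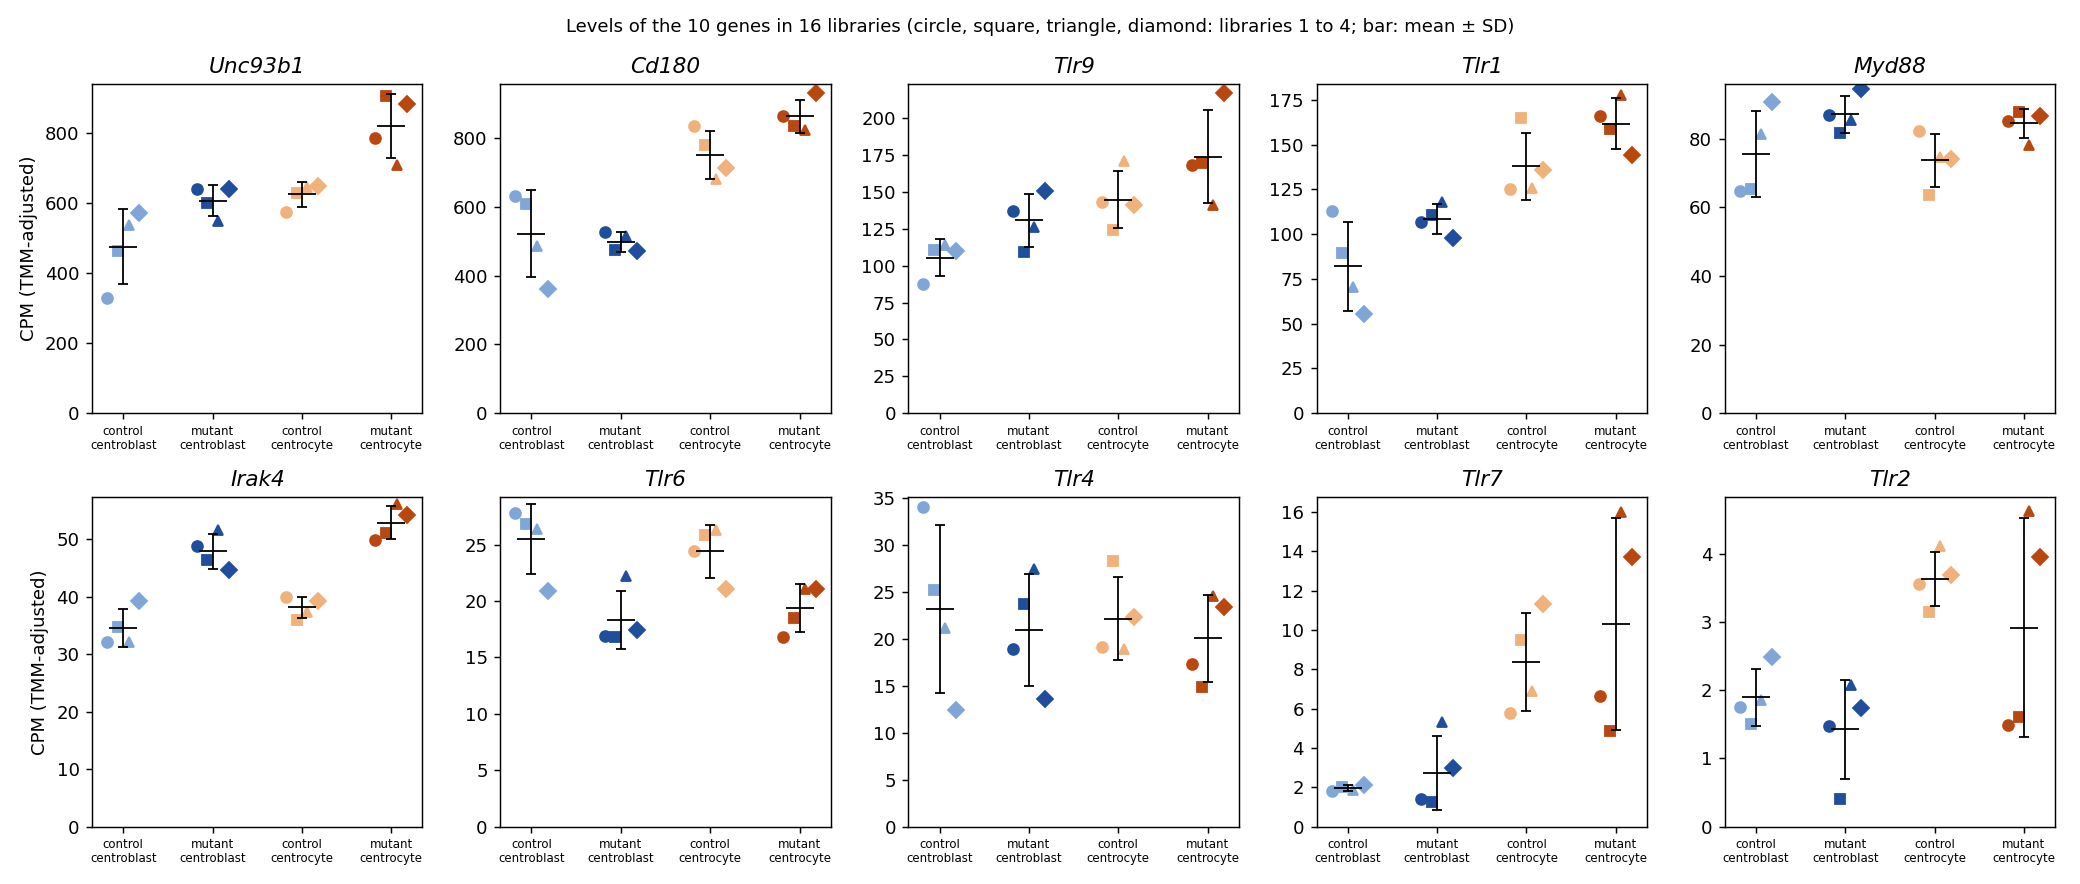
CPM (TMM-adjusted, linear axis from 0) of each gene in every library of the 4 groups, with libraries 1 to 4 as circle, square, triangle and diamond and black bars for mean ± SD. Irak4 lies at 44.7 to 56.1 CPM in all mutant libraries and at 32.1 to 39.9 in all control libraries, and Tlr7 and Tlr2 are highest in library 3 of the mutant centrocytes.

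**Figure D2:**
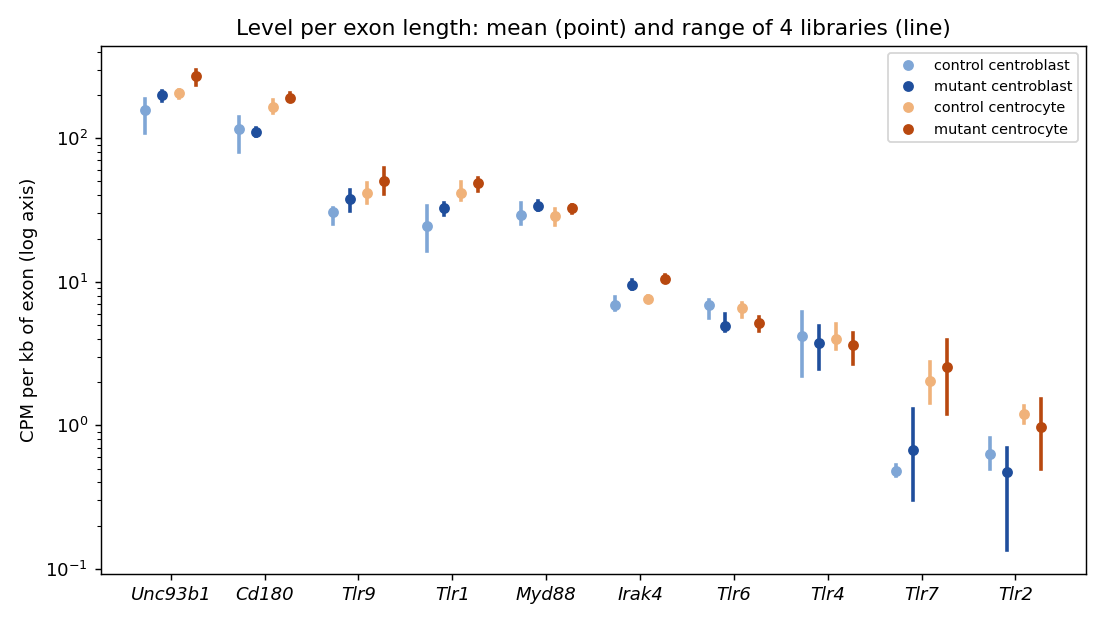
CPM per kilobase of exon on a log axis for the 10 genes, with the mean (point) and range (line) of 4 libraries in each group. The lowest Cd180 library is at 80.1 and the lowest Unc93b1 library at 108, while Tlr7 reaches at most 3.92 and Tlr2 at most 1.53.

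The first question was whether the mutant allele changed these genes in either cell type. In the mutants Irak4 was higher in both cell types, by 1.39-fold in centroblasts and 1.38-fold in centrocytes, and Tlr6 was lower in centroblasts by 1.39-fold. No other gene of the set passed the test. The called genes were 2 of 10 in centroblasts, where 10.5% of all tested genes were called, and 1 of 10 in centrocytes, where 16.5% were. The median difference over the 10 genes was 0.26 in centroblasts and 0.22 in centrocytes, against 0.0083 and 0.0014 over all tested genes.

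Irak4, the kinase that joins Myd88 in the receptor complex, had 32.1, 34.7, 32.1 and 39.2 CPM in control centroblast libraries 1 to 4 and 48.9, 46.4, 51.6 and 44.7 CPM in the mutant ones. In centrocytes its level was 39.9, 36, 37.4 and 39.3 CPM in controls and 49.9, 51.1, 56.1 and 54.3 CPM in mutants. Every mutant library was above every control library in both cell types. Libraries of the 2 genotypes did not overlap for 14.4% of all tested genes in centroblasts and for 23.5% in centrocytes. The difference was 0.47 ± 0.094 in centroblasts (adjusted p = 0.00286) and 0.47 ± 0.093 in centrocytes (adjusted p = 0.00257). It stayed called whichever 1 of the 8 compared libraries was left out, with adjusted p of 0.0012 to 0.0154 in centroblasts and 0.00496 to 0.0139 in centrocytes. In a fit of the compared groups with the replicate number as a block, the centroblast difference was 0.47 ± 0.13 and not called (adjusted p = 0.0777), and that in centrocytes was called (adjusted p = 0.0227). Within libraries 1 and 2 it was 0.50 in centroblasts (adjusted p = 0.0368) and 0.40 in centrocytes (0.125), and within libraries 3 and 4 it was 0.44 (0.152) and 0.51 (0.0461). Without mutant centrocyte libraries 3 and 4, those with the high macrophage markers, the centrocyte difference was 0.41 ± 0.12 (adjusted p = 0.0434). Irak4 (chromosome 15, 94543643 to 94581815 of GRCm38) shares 395 exon bases, 7.87% of its own, with Twf1 on the opposite strand, and whether reads were counted by strand is not given in the sources used here. Twf1 itself differed by −0.10 ± 0.11 in centroblasts and −0.03 ± 0.11 in centrocytes and was not called.

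Tlr6, the partner of Tlr2 for diacylated lipoproteins, had 27.8, 26.8, 26.4 and 20.9 CPM in control centroblasts and 16.9, 16.8, 22.2 and 17.4 CPM in mutant centroblasts. Mutant library 3 was above control library 4, so the groups overlapped. The difference was −0.47 ± 0.13 (adjusted p = 0.0232). In centrocytes its 24.4, 25.9, 26.3 and 21.1 CPM in controls stood against 16.8, 18.5, 21.1 and 21.1 CPM in mutants, so that the log2 difference was −0.34 ± 0.13 and not called (adjusted p = 0.0822). The centroblast call was kept in 2 of 8 fits with 1 library left out, with adjusted p from 0.00708 to 0.0782; leaving out any of control libraries 1, 2 and 3 or any of mutant libraries 1, 2 and 4 ended it. The centroblast difference was −0.71 within libraries 1 and 2 alone (adjusted p = 0.0123) and −0.24 within libraries 3 and 4 alone (adjusted p = 0.598). Tlr6 and Tlr1 are neighbours on chromosome 5, and 454 stretches of 50 bases are found in both transcripts, 12.5% of those of Tlr6 and 15.3% of those of Tlr1. The counts of both are uncertain, since how reads in these stretches were assigned is not given in the sources used here.

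Unc93b1, the chaperone of the endosomal receptors, had 329, 465, 537 and 572 CPM in control centroblasts and 642, 601, 550 and 640 in mutant ones. Its difference of 0.35 ± 0.14 was not called (adjusted p = 0.126). In centrocytes 574, 631, 647 and 651 CPM in controls stood below 788, 906, 709 and 885 CPM in mutants with no overlap, and the difference of 0.39 ± 0.14 missed the threshold (adjusted p = 0.0621). Tlr9, the sensor of unmethylated DNA, had 87.3, 111, 114 and 110 CPM in control and 137, 109, 126 and 151 CPM in mutant centroblasts. Its centrocyte values were 143, 124, 171 and 141 CPM in controls and 168, 170, 141 and 217 in mutants. The differences of Tlr9 were 0.30 ± 0.14 (adjusted p = 0.199) and 0.27 ± 0.14 (adjusted p = 0.201), with overlap between the genotypes in both cell types.

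Tlr1, the other partner of Tlr2, had 113, 89.7, 70.6 and 55.2 CPM in control centroblasts and 107, 111, 118 and 97.9 in mutant ones. The control values spread over more than the mutant ones, and the difference of 0.40 ± 0.16 was not called (adjusted p = 0.141). It was 0.79 and called in libraries 3 and 4 alone (adjusted p = 0.0365) and 0.093 in libraries 1 and 2 alone (adjusted p = 0.753). In centrocytes the values were 125, 165, 126 and 136 CPM in controls and 166, 159, 178 and 144 in mutants, so that the log2 difference was 0.23 ± 0.16 (adjusted p = 0.349). The adaptor Myd88 had 64.7, 65.4, 81.2 and 90.6 CPM in control and 86.7, 81.7, 85.4 and 94.4 in mutant centroblasts, a difference of 0.21 ± 0.11 (adjusted p = 0.299). In centrocytes Myd88 had 82.1, 63.6, 74.6 and 74.1 CPM in controls and 85.1, 87.8, 78.2 and 86.5 in mutants, so that the log2 difference was 0.20 ± 0.11 (adjusted p = 0.247). Its groups overlapped in both cell types, and 11.26% of its exon bases are shared with Acaa1a on the opposite strand, a gene called higher in mutant centroblasts (0.42 ± 0.12, adjusted p = 0.0366).

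Cd180 stood at 632, 609, 486 and 361 CPM in control and 526, 475, 516 and 471 CPM in mutant centroblasts. Its mutant libraries lay inside the wide control range, with a difference of −0.07 ± 0.14 (adjusted p = 0.814). Cd180 shares 182 exon bases, 4.04% of its own, with Mast4 on the opposite strand, which was called lower in mutants in both cell types (−0.76 ± 0.19 and −0.70 ± 0.19). In centrocytes Cd180 had 835, 778, 679 and 711 CPM in controls and 863, 834, 824 and 929 in mutants, so that the log2 difference was 0.20 ± 0.14 (adjusted p = 0.344). For Tlr4 the values were 34, 25.2, 21.1 and 12.4 CPM in control and 18.9, 23.7, 27.4 and 13.6 in mutant centroblasts. In centrocytes Tlr4 had 19.1, 28.3, 18.9 and 22.3 CPM in controls and 17.3, 14.9, 24.5 and 23.4 in mutants. Its differences of −0.15 ± 0.26 in centroblasts (adjusted p = 0.794) and −0.15 ± 0.26 in centrocytes (adjusted p = 0.742) were smaller than their errors.

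Tlr7, the sensor of single-stranded RNA, is encoded on the X chromosome. It had 1.8, 2.04, 1.88 and 2.14 CPM in control centroblasts and 1.39, 1.23, 5.31 and 2.98 in mutant ones. Mutant libraries 3 and 4 were the highest and mutant libraries 1 and 2 the lowest of the 8. The difference of 0.48 ± 0.43 (adjusted p = 0.562) was −0.56 within libraries 1 and 2 and 1.06 within libraries 3 and 4, neither of them called (adjusted p = 0.255 and 0.107). In centrocytes Tlr7 had 5.8, 9.51, 6.88 and 11.3 CPM in controls and 6.66, 4.86, 16 and 13.7 in mutants. The difference of 0.30 ± 0.40 (adjusted p = 0.65) was −0.42 within libraries 1 and 2 and 0.70 within libraries 3 and 4. Tlr2 had 1.75, 1.5, 1.85 and 2.48 CPM in control and 1.47, 0.411, 2.08 and 1.74 in mutant centroblasts, a difference of −0.40 ± 0.40 (adjusted p = 0.613). Its centrocyte values were 3.56, 3.15, 4.11 and 3.69 CPM in controls and 1.49, 1.61, 4.62 and 3.95 in mutants, so that the log2 difference was −0.32 ± 0.39 (adjusted p = 0.614). For both genes mutant centrocyte libraries 3 and 4, in which the macrophage markers were 356 and 355 CPM, stood well above libraries 1 and 2, in which they were 92.9 and 59.3 CPM.

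**Figure D3:**
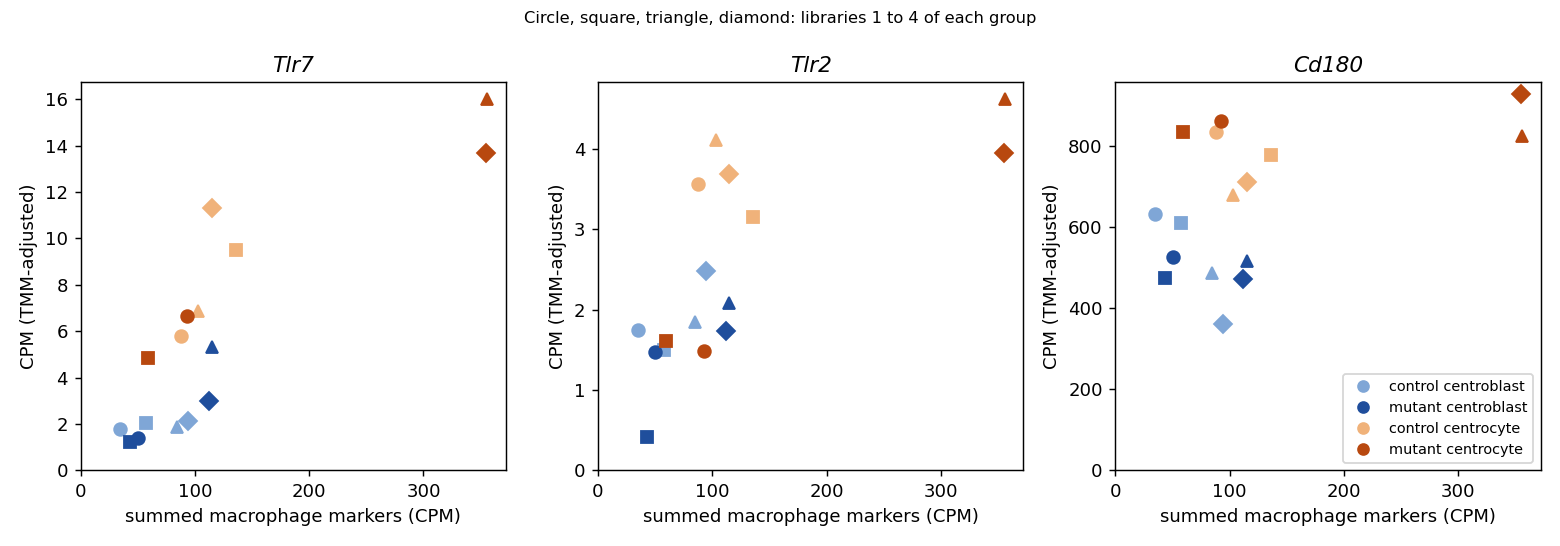
CPM of Tlr7, Tlr2 and Cd180 against the summed CPM of 20 macrophage markers in the 16 libraries, coloured by group, with libraries 1 to 4 as circle, square, triangle and diamond. Mutant centrocyte libraries 3 and 4 lie far to the right at 356 and 355 CPM with the highest Tlr7 values, whereas Cd180 there is 824 and 929 CPM, near the 863 and 834 CPM of libraries 1 and 2.

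Across the 16 libraries, deviations from the group means followed the macrophage sum with r = 0.843 for Tlr7 and r = 0.773 for Tlr2. The other 8 genes had r between −0.289 and 0.424. Both genes are known to be expressed by macrophages as well as B cells. These correlations describe 16 libraries, and whether any of them shared a sort is not established. The part of macrophage RNA in the levels of Tlr7 and Tlr2 was not tested. The sums of other marker lists also differed by genotype. Dendritic cell markers (10 genes) summed to 70.8 to 82.9 CPM in controls and 101 to 162 CPM in mutants. Most of that was Flt3, at 53.4 to 153 CPM, and 1 of 6 tested genes was called in each cell type. The median log2 difference of the 6 was −0.15 in centroblasts and −0.42 in centrocytes, the other way from the sum. Erythroid markers (8 genes) summed to 12.4 to 20.2 CPM in control and 19.7 to 40.6 CPM in mutant centrocytes. The naive and marginal zone B cell list (12 genes) summed to 697 to 736 CPM in control and 808 to 935 CPM in mutant centroblasts, without overlap. Of these 12 genes, 1 was called higher and 1 lower there, and the median log2 difference was 0.095. Mean Gpr183 rose from 10.1 CPM in control to 25.9 CPM in mutant centroblasts and mean Cd9 fell from 9.37 to 5.61 CPM, both without overlap. Mean Cr2 was 241 CPM in control and 343 CPM in mutant centroblasts, with overlap between the libraries. T cell markers (12 genes, mostly Lck) had a median sum of 138 CPM in control and 192 CPM in mutant centroblasts. The median log2 difference of the 8 tested T cell markers was −0.17 there, again the other way from the sum. The part of these 4 lists in the genotype differences was not tested.

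The genotype calls depended on the GC and length offset. With it, 4 of the 10 genes were called in centroblasts, where 18% of all genes were: Irak4 at 0.56 (adjusted p = 0.000249), Tlr1 at 0.55 (0.00139), Unc93b1 at 0.27 (0.00964) and Tlr6 at −0.34 (0.0251). In centrocytes 6 were called, all higher, where 28.3% of all genes were: Irak4 at 0.58 (adjusted p = 0.000151), Unc93b1 at 0.36 (0.00116), Tlr1 at 0.37 (0.0149), Tlr9 at 0.32 (0.0241), Cd180 at 0.30 (0.0432) and Myd88 at 0.21 (0.0459). The offset also moved the balance of all calls, from 619 higher and 976 lower to 1566 and 1182 in centroblasts, and from 1123 and 1394 to 2746 and 1574 in centrocytes. Irak4 was called with and without it in both cell types. Adding the replicate block to the offset, a choice made after seeing the data, gave the same counts of 4 and 6.

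The second question was how these genes differ between the dark and light zones. In controls 5 of the 10 genes were higher in centrocytes and none was lower: Tlr7, Tlr1, Cd180, Tlr9 and Unc93b1. Of all tested genes 27.8% were called in controls, and 14.9% were called as higher in centrocytes. In mutants 4 genes were higher and none was lower: Tlr7, Cd180, Tlr1 and Unc93b1. There 16% of all genes were called and 8.92% were higher. Libraries of the 2 cell types did not overlap for 6 of the 10 genes in controls (27.7% of all genes) and for 3 in mutants (22.1%). The median difference was 0.42 over the 10 genes in both genotypes, against 0.0049 in controls and 0.018 in mutants over all genes. These comparisons use the same 16 libraries as those of genotype, so their values are not independent of them.

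Among the endosomal sensors, Tlr7 had the largest zone difference of the 10 genes. Its values given above, 1.8 to 2.14 CPM in control centroblasts and 5.8 to 11.3 in control centrocytes, did not overlap. The difference was 2.09 ± 0.43, or 4.26-fold (adjusted p = 0.00167), and was called in all 8 fits with 1 library left out. In mutants the difference was 1.91 ± 0.42, or 3.76-fold (adjusted p = 0.0044), and centroblast library 3 at 5.31 CPM was above centrocyte library 2 at 4.86 CPM. Without mutant centrocyte libraries 3 and 4 it was 1.08 ± 0.43 and no longer called (adjusted p = 0.127). The macrophage sum was 34.6 to 94.1 CPM in control centroblasts and 87.8 to 136 CPM in control centrocytes, so it was higher in the same cells, and its part was not tested. Tlr9 was higher in control centrocytes by 0.45 ± 0.14 (adjusted p = 0.0232), with no overlap, and differed by 0.41 ± 0.14 in mutants, where it was not called (adjusted p = 0.0519). With the GC and length offset the control difference of Tlr9 fell to 0.19 ± 0.099 (adjusted p = 0.139). The call was also lost without control centroblast library 1 and without control centrocyte library 3. Unc93b1 was higher by 0.40 ± 0.14 in controls (adjusted p = 0.0428) and 0.43 ± 0.14 in mutants (adjusted p = 0.0415). Its centrocyte and centroblast libraries did not overlap in either genotype, but its call was kept in 3 of 8 fits with 1 library left out in controls and in 1 of 8 in mutants, the one without mutant centrocyte library 3. In controls it was lost without centroblast libraries 1 or 2 and without centrocyte libraries 2, 3 or 4.

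Among the surface receptors, Cd180 was higher in centrocytes by 0.52 ± 0.14 in controls (adjusted p = 0.00976) and by 0.80 ± 0.14, or 1.74-fold, in mutants (adjusted p = 0.000693). Every centrocyte library had more than every centroblast library in both genotypes, and the call was kept in all 8 fits with 1 library left out in each. In controls the call of Cd180 was lost with the compared groups alone (adjusted p = 0.0507) and in libraries 1 and 2 alone (0.37, adjusted p = 0.102). Tlr1 was higher by 0.75 ± 0.16, or 1.68-fold, in controls (adjusted p = 0.0027) and by 0.58 ± 0.16 in mutants (adjusted p = 0.021), again with no overlap. The mutant call of Tlr1 was lost without centroblast library 1 or 4, without centrocyte library 1 or 3, and without centrocyte libraries 3 and 4 together (adjusted p = 0.0682). That call was also lost in libraries 1 and 2 alone and in libraries 3 and 4 alone. The control call of Tlr1 was lost in libraries 1 and 2 alone. Tlr2 had 3.15 to 4.11 CPM in control centrocytes, above the 1.5 to 2.48 CPM of control centroblasts, but its difference of 0.94 ± 0.39 was not called (adjusted p = 0.0869), nor was that of 1.03 ± 0.40 in mutants (adjusted p = 0.0931). In controls Tlr2 was called with the compared groups alone (adjusted p = 0.0103), without a filter (0.0342), when sex was a covariate (0.0239) and under the replicate block (0.0151). With the replicate number as a block, by which mutant centroblast and centrocyte libraries deviated together, Tlr9 (adjusted p = 0.0121) and Tlr2 (adjusted p = 0.0136) were called in mutants as well.

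The adaptor, its kinase and the remaining receptors showed no zone call. Irak4 differed by 0.14 ± 0.094 in controls (adjusted p = 0.269) and 0.14 ± 0.093 in mutants (adjusted p = 0.34). Myd88 differed by −0.04 ± 0.11 in controls and −0.05 ± 0.11 in mutants. Tlr6 differed by −0.06 ± 0.13 in controls and 0.08 ± 0.13 in mutants, and Tlr4 by −0.06 ± 0.26 in each. Among the lists of other cell types, that of naive and marginal zone B cells (12 genes, among them Fcer2a, Ighd and Cr2) moved with the zone comparison: it summed to 697 to 935 CPM in centroblasts and 1660 to 1990 CPM in centrocytes, with 6 genes called higher and 1 lower in controls and 5 higher in mutants. T cell markers (12 genes) summed to 111 to 201 CPM in centroblasts and 217 to 334 CPM in centrocytes, nearly all of it Lck, while the defining marker Cd3e was at 0.364 CPM or less in every library. Of the 8 tested T cell markers, 3 were called higher in centrocytes and none lower in each genotype. Their median log2 difference was 0.643 in controls and 0.996 in mutants. The part of these lists in the zone differences was not tested.

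**Figure D4:**
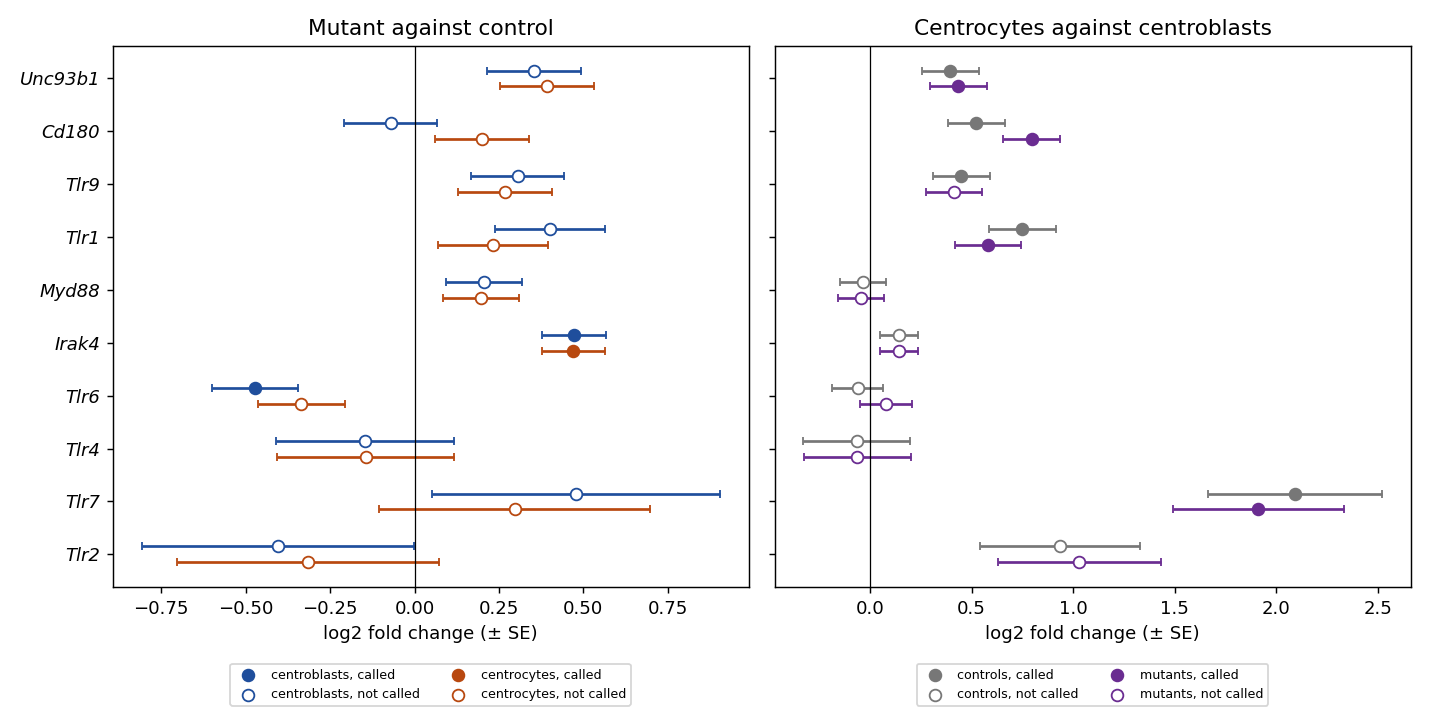
Log2 fold change ± SE of each gene for mutant against control (left) and centrocytes against centroblasts (right) from the edgeR fit, with filled points for called genes and open points for the rest. Irak4 is filled in both cell types on the left at 0.47, and Tlr7 lies furthest from 0 on the right at 2.09 in controls and 1.91 in mutants.

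No gene of the set was called for a difference between the genotype effects of centroblasts and centrocytes, and 0% of the 15240 tested genes were, with edgeR. The interaction values ran from −0.18 (Tlr7) to 0.27 (Cd180), and the smallest unadjusted p was 0.183, so none of the 10 was under an unadjusted p of 0.05, against 429 of all genes. DESeq2 called 1 gene, which was not of the set. For Irak4 the interaction was −0.0028 ± 0.13. The SE was largest for Tlr7 (0.58) and Tlr2 (0.56), the genes with the lowest CPM.

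Within groups, some genes of low and of high GC content varied in opposite directions, and others did not. The deviations of Tlr1 from its group means ran with those of Tlr4 (r = 0.824) and Cd180 (r = 0.753), and against those of Myd88 (r = −0.92) and Unc93b1 (r = −0.808), over 16 libraries. Transcript GC content was 39.4% for Tlr4, 45.1% for Tlr1 and 46% for Cd180, and 53.5% for Myd88, 56.2% for Tlr9 and 57.3% for Unc93b1. In control centroblasts, library 1, with the most negative GC correlation, had the highest Tlr1 (113 CPM) and the lowest Unc93b1 (329 CPM). Library 4, with the most positive one, had the lowest Tlr1 (55.2 CPM) and the highest Unc93b1 (572 CPM). Tlr7, with 41% GC, had r of −0.0917 with Myd88, −0.139 with Unc93b1 and 0.0639 with Tlr9, and Tlr9 had r of −0.173 with Cd180 and −0.0427 with Tlr6. The part of the GC trend in these correlations was not tested.

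**Figure D5:**
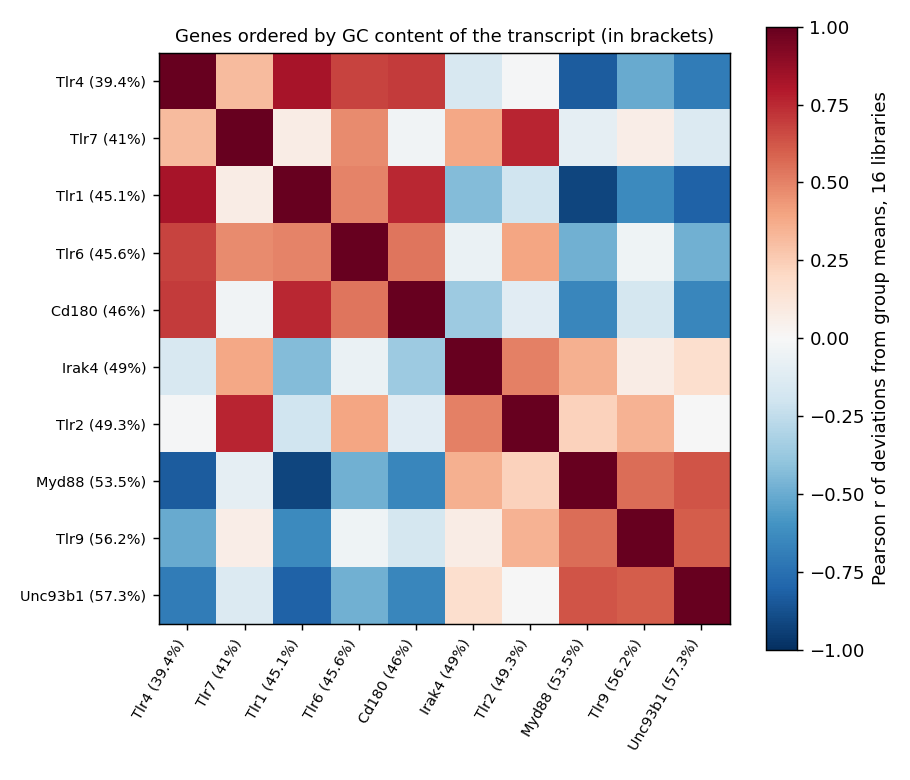
Pearson r between genes of their deviations from the group means over 16 libraries, with the genes ordered by transcript GC content (in brackets) and colour from −1 (blue) to 1 (red). Tlr4, Tlr1 and Cd180 are red among themselves and blue against Myd88 and Unc93b1, with r = −0.92 between Tlr1 and Myd88, whereas Tlr7 runs with Tlr2 (r = 0.758).

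The rest of the pathway was read from 7 lists of 65 genes, of which 58 were tested. In mutants 8 of the 58 were higher and none lower in each cell type, beside 10.5% and 16.5% of all genes called. The kinase Irak2, which acts downstream of Irak4, was higher by 0.72 ± 0.10 in mutant centroblasts (18.4 to 30.3 mean CPM, adjusted p = 0.000181) and by 0.75 ± 0.10 in mutant centrocytes (adjusted p = 0.000128). It was the 1 of 16 kinases and ligases that was called in each cell type. Among genes for receptor trafficking and processing, Lgmn, a protease that cleaves Tlr9, was higher by 0.56 ± 0.099 and 0.81 ± 0.099 in the 2 cell types, and Ap3b1, a subunit of the sorting adaptor AP-3, by 0.50 ± 0.091 and 0.70 ± 0.091. Ly86, the partner of Cd180, was called in centrocytes, at 0.56 ± 0.16 (adjusted p = 0.0264). Of the transcription factors, Nfkb1 and Irf7 were called higher in both cell types and Irf5 in centrocytes. Nlrc3, a restraint on Traf6, was higher by 1.41 ± 0.21 and 1.11 ± 0.20, and Irak3, an inhibitory relative of Irak4, by 0.59 ± 0.18 in centroblasts. None of the 4 other adaptors tested was called by genotype.

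Between the zones, 22 of the 58 genes were higher and 7 lower in control centrocytes, and 21 were higher and 3 lower in mutant centrocytes. Over all tested genes the shares were 27.8% called and 14.9% higher in controls, and 16% called and 8.92% higher in mutants. Genes induced by the pathway accounted for 7 of these rises in each genotype, of 8 tested: Nfkbid, an atypical IkB protein, was higher by 2.34 ± 0.18 in controls and 1.96 ± 0.18 in mutants, and Tnf by 1.18 ± 0.14 and 1.25 ± 0.14. Cd86 is on this list, and its protein was used to sort centrocytes from centroblasts. Its rise, from means of 145 to 280 CPM in controls and 163 to 311 CPM in mutants, is therefore not an independent result. Irak2 was higher by 0.79 ± 0.10 in controls and 0.81 ± 0.10 in mutants, and the kinase Map3k8 by 1.28 ± 0.15 and 1.06 ± 0.15. Tnfaip3, which removes ubiquitin from pathway proteins, was higher by 1.08 ± 0.11 and 0.91 ± 0.11. Tirap, the bridging adaptor of Tlr2 and Tlr4, was lower in centrocytes, with differences of −0.77 ± 0.13 in controls and −0.64 ± 0.13 in mutants. So were Nlrx1, at −0.88 ± 0.14 and −0.82 ± 0.14, and the ligase Traf6, at −0.33 ± 0.11 and −0.38 ± 0.11. These genes are also targets or parts of other NF-kB routes, such as those of CD40 and the B cell receptor. Of the Toll-like receptors outside the set, Tlr3, Tlr8, Tlr12 and Tlr13 were tested and none was called in any comparison. Tlr3 and Tlr12 had group means of 1.29 to 3.17 CPM, Tlr8 and Tlr13 of 0.059 to 0.753 CPM, and Tlr5 and Tlr11 were below the filter, with at most 0.344 CPM in any library.

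Genes whose log2 CPM followed each member most closely over the 16 libraries were taken from 9781 candidates with a mean log2 CPM of at least 2. Plxnc1 (r = 0.97) and Cr2 (0.965) were nearest to Tlr1, and Sh3bp1 (0.988) and Sh2d3c (0.986) to Unc93b1. Irak4 was followed by Dhrs3 (0.961) and Gm2a (0.955), Tlr9 by Snx29 (0.962) and Wdfy4 (0.958), and Cd180 by Lrrk2 (0.955) and Smarca2 (0.954). For Tlr7 the nearest were Ighd (0.935), Cfp (0.933) and Klf3 (0.924), for Tlr4 Sacm1l (0.957), for Tlr6 Cpne3 (0.917) and for Myd88 Kcnk5 (0.956). Tlr2 had Peg13 (0.925), out of 9782 candidates. These correlations share depth, GC trend and the 4 groups, and are given without a test.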

How the data were processed

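RNA of 16 libraries was prepared with Illumina TruSeq kits, per the labels' protocols. The deposited values are raw read counts for each gene. According to the notes on processing that the submitters gave, Trim Galore, cutadapt, STAR 2.5.3a, featureCounts 1.4.5-p1 of Subread and the mm10 build were used. Annotation and strand setting are not given in the sources used here. Reads carry no molecular identifiers, so counts are not independent molecules.

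Tests used edgeR 4.0.16 under R 4.3.3 (filterByExpr, TMM factors, quasi-likelihood test, 1 mean per group, 12 residual degrees of freedom). Reported adjusted p values are 2-sided Benjamini-Hochberg values over 15240 genes, with a threshold of 0.05. Exon lengths, coordinates and GC content came from GENCODE M21 (96.9% of tested genes had GC and length). Alternatives were DESeq2 1.42.0, RLE factors, other filters, the compared groups alone, a replicate block, sex as covariate or split, immunoglobulin genes left out, mutant centrocyte libraries 3 and 4 left out, a spline offset (4 degrees of freedom) for GC and length, and each library left out. The fit was tested on counts simulated from its own model, with independent libraries. These held no GC trend, sex split or macrophage difference between libraries, so the simulation cannot speak to those. Same-numbered mutant centroblast and centrocyte libraries deviated together (r = 0.263 to 0.327 in all 4 pairs, over 0.1 in each). In the controls r was −0.0059 to 0.452. Of the 4 numbers, 1 was the best match in both directions in each genotype. Same-numbered libraries also share sex, so pairing is not established.

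The members, lists, tests and other settings were chosen with earlier results of these data known. By the naming rule all 10 members are given, up to 3 called genes per pathway list, direction and comparison with the smallest p, and the 3 genes most correlated with each member, of which the text names a part; genes named as not called, marker genes, levels of uncalled receptors and overlapping genes were added for context. Naive B cells, mentioned in the design text, are not analysed here. Some genes of these lists are not reported here.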

Additional observations from a re-analysis of the deposited data

Results flagged for a closer look

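In 2 of 40 groups of 4 libraries, the highest or lowest library stood apart from the other 3 by Dixon's 95% criterion (gap over range above 0.829), which chance gives in about 1 of 20 groups. Tlr6 had 22.2 CPM in mutant centroblast library 3, against 16.8 to 17.4 CPM in the other mutant centroblasts (gap over range 0.889). That library is the one that overlaps the controls. Tlr9 had 87.3 CPM in control centroblast library 1, against 110 to 114 CPM in the other control centroblasts (gap over range 0.837), and the call of Tlr9 between the zones of controls was lost without that library.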

How the results depend on the processing

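Members called in mutant against control centroblasts numbered 2, and 1 without a filter or with the compared groups alone (Irak4), 1 in libraries 3 and 4 alone (Tlr1, with Irak4 and Tlr6 lost), 0 with the replicate block, and 4 with the GC and length offset alone or with the block. Under the replicate block Irak4 had adjusted p = 0.0777 and Tlr6 0.103; same-numbered libraries of the 2 genotypes correlated at −0.0278 to 0.344 in centroblasts and −0.0886 to 0.123 in centrocytes, so the numbers do not show pairing there; same-numbered libraries also share sex. In centrocytes the 1 call became 2 with DESeq2 or the compared groups alone (Unc93b1 added), 0 in libraries 1 and 2 alone, and 6 with the offset alone or with the block. Between zones, libraries 1 and 2 alone gave 2 calls in controls and 2 in mutants, and leaving out mutant centrocyte libraries 3 and 4 gave 1 in mutants. The 8 pathway genes called in centroblasts became 5 with the replicate block and 2 in libraries 3 and 4 alone. Those in centrocytes became 17 with the offset and 18 with offset and block, and the 24 between zones in mutants became 15 in libraries 1 and 2 alone and 13 in libraries 3 and 4 alone.

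With 1 library left out, members called ranged from 1 to 3 and 1 to 2 by genotype (centroblasts, centrocytes) and from 3 to 5 and 2 to 4 by zone (controls, mutants), and pathway genes from 5 to 11, 5 to 9, 22 to 32 and 20 to 23. Between zones, the replicate block added Tlr2 (adjusted p = 0.0151) and dropped Unc93b1 (0.0565) in controls, and added Tlr2 and Tlr9 in mutants. By genotype in centrocytes it changed no call of a member.

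Every change of sign among members was in a value that was not called. By genotype in centroblasts, Tlr4 became 0.31 in libraries 3 and 4 alone, 0.085 with the offset and 0.079 with offset and block, Cd180 became 0.23, 0.043 and 0.050 under the same settings, and Tlr7 became −0.56 in libraries 1 and 2 alone. With 1 library left out, Tlr4 ran from −0.36 to 0.092, Cd180 from −0.22 to 0.028 and Tlr7 from −0.086 to 0.72. In centrocytes, Tlr2 became 0.12 and Tlr4 0.21 in libraries 3 and 4 alone, Tlr4 became 0.13 with the offset (0.132) and with offset and block (0.127), and Tlr7 became −0.42 in libraries 1 and 2 alone and −0.53 without mutant libraries 3 and 4. By zone in controls, Tlr4 became 0.0047 with the replicate block, 0.0033 with the block within genotype and 0.30 in libraries 3 and 4 alone, Tlr6 became 0.0026 in libraries 3 and 4 alone, and Myd88 became 0.16 in libraries 1 and 2 alone. In mutants, Tlr4 became 0.20 in libraries 3 and 4 alone, Tlr6 −0.048 without mutant centrocyte libraries 3 and 4, and Myd88 0.035 in libraries 1 and 2 alone. With 1 library left out these ran from −0.28 to 0.18 for Tlr4, from −0.15 to 0.0023 for Tlr6 and from −0.10 to 0.060 for Myd88 in controls, and from −0.22 to 0.10 for Tlr4 in mutants. Splits by library number leave fewer samples, and the cause of the other changes was not tested. In the GC and length offset the balance of all zone calls moved from 2270 higher and 1960 lower to 2247 and 3633 in controls, and from 1360 and 1078 to 1608 and 2416 in mutants. Tlr2 and Tlr7 had the lowest CPM and the widest errors; what part depth had in these was not tested.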

Other observations

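Plasma cell markers (6 genes) summed to 1560 to 2210 CPM in centroblasts and 944 to 1260 CPM in centrocytes, mostly from Jchain, with means of 1410 and 818 CPM in controls. Other members of the list went the other way in controls: Irf4 had means of 35.6 CPM in centroblasts and 89.3 CPM in centrocytes, and Prdm1 of 4.03 and 13.1 CPM. Neutrophil markers (10 genes) summed to at most 3.69 CPM in any library, and none of the 10 was tested.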
